A study of Mus musculus with 4 samples.

Results

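Open chromatin was described in windows around 8 imprinted genes, H19, Igf2, Kcnq1ot1, Snrpn, Peg3, Meg3, Gnas and Igf2r. The tissue was the mouse dentate gyrus, a part of the hippocampus, with and without the gene Mbd1. The genes lie in 7 windows set by coordinates in the mouse build mm9, H19 and Igf2 sharing a window, and every peak summit inside a window was taken, with summits of any library joined to 1 region where they lay within 250 bp of the next. This gave 22 regions in 870 kb, of 82899 regions in the whole series. The signal was FAIRE-seq, which sequences the nucleosome-poor DNA that stays in the water phase when sheared, fixed chromatin is extracted with phenol and chloroform. All mice were of the strain given as C57BL6 and around 9 weeks old, and the knockout is labelled Mbd1 KO, without the allele or the way it was made. There were 4 libraries, titled WT 1, WT 2, Mbd1 KO 1 and Mbd1 KO 2. The genotype field of the labels contradicts 2 of these titles: it calls WT 1 a knockout and Mbd1 KO 2 a wild type. Groups follow the titles, and results that depend on them are also given for the genotype field, whose knockout pair is WT 1 with Mbd1 KO 1 and whose wild-type pair is WT 2 with Mbd1 KO 2. Separate animals are not stated for libraries with 1 title, so the spread between them may be technical.

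An imprinted gene is expressed mainly from the copy inherited from one parent. Such genes sit in clusters that are governed by imprinting control regions, short CpG-rich stretches whose DNA is methylated on the maternal or the paternal copy only. At H19 and Igf2 and at Meg3 the paternal copy of the main control region carries the methylation, and at Kcnq1ot1, Snrpn, Peg3 and Igf2r the maternal copy does; Gnas has differentially methylated regions of both kinds. MBD1 binds CpG sites that carry methylation and takes part in gene silencing. The summit lists do not tell the parental copies apart.

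To show what CpG sequence these genes carry, the 250 bases before the annotated start of 4 of them are printed 5′ to 3′ from RefSeq (build GRCm38.p6), with CpG sites in capitals. Kcnq1ot1 and Peg3 are shown because their windows held the regions with the highest scores, Snrpn because its window held the fewest calls, and Meg3 as a gene of the paternally methylated kind. The stretches lie at chr7:143296548-143296797, chr7:6730420-6730669, chr7:60005200-60005449 (all 3 on the minus strand) and chr12:109540746-109540995 (plus strand). These are GRCm38.p6 positions and cannot be set beside the mm9 summits below.

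Kcnq1ot1: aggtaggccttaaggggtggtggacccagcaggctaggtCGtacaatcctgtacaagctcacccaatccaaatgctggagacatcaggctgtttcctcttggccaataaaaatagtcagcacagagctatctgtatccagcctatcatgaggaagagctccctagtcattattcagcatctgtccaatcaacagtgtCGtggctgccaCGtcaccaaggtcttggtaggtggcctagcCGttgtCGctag
Peg3: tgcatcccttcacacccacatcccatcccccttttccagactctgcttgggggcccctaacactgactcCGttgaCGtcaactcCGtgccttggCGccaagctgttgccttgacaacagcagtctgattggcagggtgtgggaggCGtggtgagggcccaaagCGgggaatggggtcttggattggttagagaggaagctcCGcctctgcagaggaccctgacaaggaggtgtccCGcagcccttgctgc
Snrpn: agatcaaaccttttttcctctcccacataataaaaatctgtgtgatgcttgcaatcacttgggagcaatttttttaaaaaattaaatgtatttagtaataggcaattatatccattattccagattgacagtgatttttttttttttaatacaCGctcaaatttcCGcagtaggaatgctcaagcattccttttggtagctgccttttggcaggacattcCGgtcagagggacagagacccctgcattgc
Meg3: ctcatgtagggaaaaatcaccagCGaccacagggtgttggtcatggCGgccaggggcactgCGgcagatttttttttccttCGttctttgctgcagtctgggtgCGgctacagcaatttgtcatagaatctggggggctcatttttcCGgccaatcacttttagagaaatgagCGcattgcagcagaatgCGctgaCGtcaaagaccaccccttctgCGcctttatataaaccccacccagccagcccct

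These stretches held 5 CpG sites for Kcnq1ot1, 8 for Peg3, 3 for Snrpn and 10 for Meg3. The Snrpn stretch belongs to the start that lies lowest on the chromosome among its 4 annotated starts. In all, 17 such stretches of 7 genes were matched by symbol, and H19 was not matched. Their median was 8 CpG sites, against 6 over all 32851 promoter stretches, and they ran from 0 at the second start of Meg3 to 29 at the fourth start of Gnas. Igf2r, with 27 sites, also lay near the top of that range. The motif TGCCGC, searched on both strands and containing a CpG itself, is the hexamer bound by the imprinting factor ZFP57 when methylated. It occurred in 1 of the 17 stretches, the first of Meg3, and in 8.68% of all promoter stretches. A match is a description of the letters and not a binding site.

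The windows held 15 summits in WT 1, 17 in WT 2, 18 in Mbd1 KO 1 and 17 in Mbd1 KO 2, out of lists of 38142, 46651, 56382 and 49671. No library had more than 1 summit in any of the 22 regions, so a region is either called or not called in a library. By title the mean ± SD was 16 ± 1.41 summits for WT and 17.5 ± 0.707 for Mbd1 KO (n = 2 per group; two-sided exact permutation p = 0.667). Relative to list length the order was the opposite, with 0.379 ± 0.0204 window summits per 1000 summits for WT and 0.331 ± 0.0163 for Mbd1 KO (n = 2 per group; two-sided exact permutation p = 0.333). A comparison of 2 libraries with 2 cannot give a p below 0.33. The difference in this share, Mbd1 KO minus WT, was −0.0481 by title. It reversed to 0.00293 by the genotype field, to 0.0131 with the strongest 38142 summits of each list and to 0.117 with summits scoring at least 10. The knockout to wild-type ratio of window summits was 1.09 by title and 0.971 by the genotype field. Read depth is not known from the lists.

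Regions of the 7 windows recurred across libraries. Of the 22 regions, 11 (50.0%) were called in all 4 libraries, against 32.1% of all regions. Another 3 (13.6%) were called in 3 libraries, against 10.03% of all regions, and 6 (27.3%) in 2, against 13.8%. Only 2 (9.09%) were called in 1 library, both in WT 2, against 44.1% of all regions. The windows were somewhat sparser than the genome, with 25.3 regions per Mb against 32.1, and held 12.6 regions of all 4 libraries per Mb against 10.3. These shared regions were unevenly spread: the Peg3 window, 80 of the 870 kb, held 4 of the 11, and the Snrpn window held 0. The shared regions of the windows lay lower in the lists than those of the genome. Their lowest percentile over the 4 libraries had a median of 42.8, against 56.8 for the 26592 shared regions of the genome. A percentile here is the rank of the summit within its list by score, the −log10 p or q value of the peak caller, as a share of the list length, with tied scores given their mean rank and 100 the strongest. Only 4 of the 11 (36.4%) reached a score of 10 in all 4 libraries, against 60.3% of shared regions genome-wide. These were Kcnq1ot1 region 1, Peg3 regions 1 and 4 and Igf2r region 2.

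**Figure D1:**
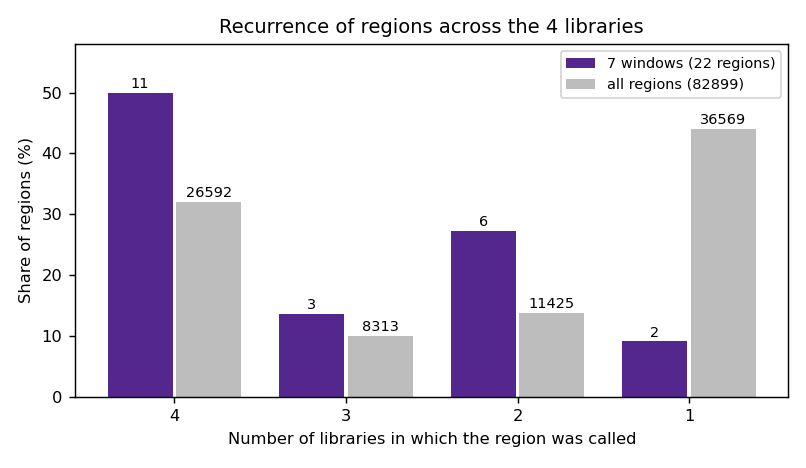
Share of regions (y axis, %) by the number of libraries in which they were called (x axis) for the 22 regions of the 7 windows and for all 82899 regions, with the number of regions above each bar. Regions called in all 4 libraries made up 50.0% in the windows and 32.1% overall.

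Regions are numbered along each window from its lower coordinate, and their positions are in mm9. No mm9 gene models were used, so whether a region falls in a promoter, exon, intron or control region is not given. In the RefSeq table of the other build, H19 lies below Igf2 on chromosome 7, Kcnq1ot1 overlaps Kcnq1, Igf2r overlaps Airn, Snrpn overlaps Snurf, and Peg3 lies between Zim1 and Usp29.

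**Figure D2:**
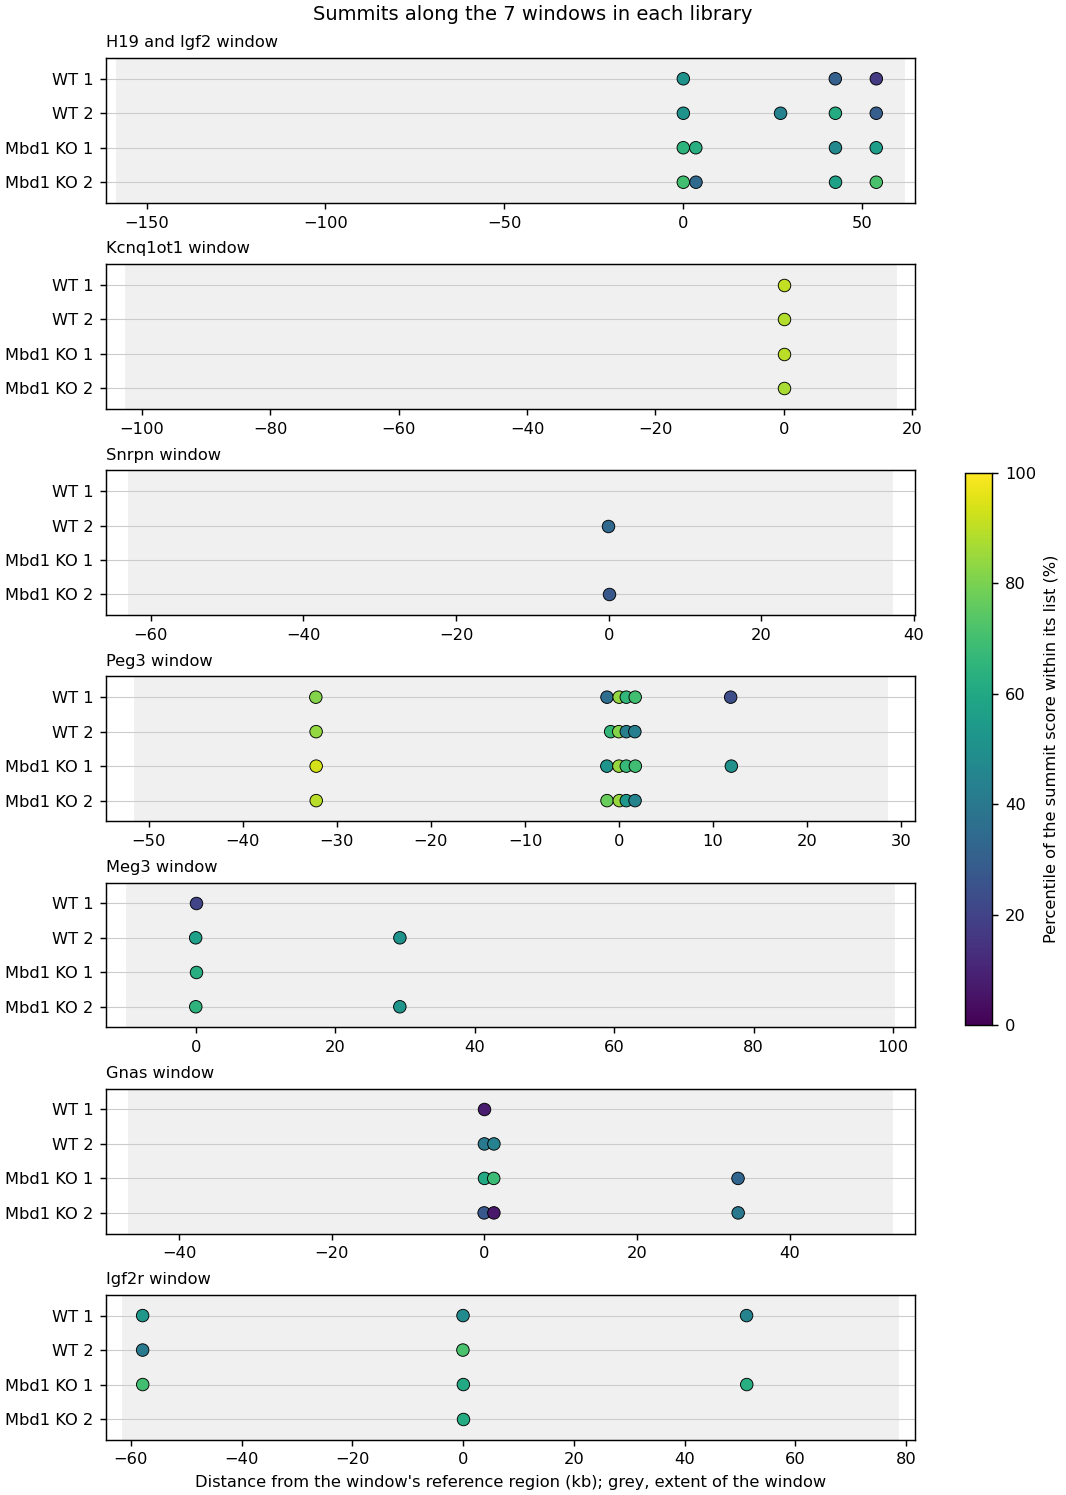
Summits in each library (rows) along the 7 windows, by distance in kb from the window's reference region (the shared region with the highest lowest percentile, or the only region of the Snrpn window); colour gives the score percentile and grey the extent of the window. Stretches without a summit in any library were longest in the H19 and Igf2 (158.2 kb), Kcnq1ot1 (102.5 kb), Meg3 (70.9 kb) and Snrpn (62.8 kb) windows.

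At H19 and Igf2 (chr7:149700000-149920000) all 5 regions lay in the upper part of the window. H19 is a non-coding RNA made from the maternal copy and Igf2 is a growth factor made from the paternal copy, and both are governed by a control region between them. The first 158 kb of the window held no summit of any library, and region 1 was 284 kb from the preceding region of the list. Region 1 (chr7:149858234-149858250) was called in all 4 libraries, with percentiles of 50.6 in WT 1, 50.6 in WT 2, 64.6 in Mbd1 KO 1 and 69.9 in Mbd1 KO 2. Both libraries titled Mbd1 KO had the higher percentiles there, while the pairs of the genotype field overlapped. When only the regions called in all 4 libraries were ranked, the titled groups overlapped, at 33.8, 22.7, 30.1 and 45.2 in the same library order. Region 2 (chr7:149861729-149861782) was called only in Mbd1 KO 1, at 62.6, and Mbd1 KO 2, at 33.8. The nearest WT summits lay at region 1, 3487 bp away in WT 1 and 3479 bp away in WT 2. Region 3 (chr7:149885413) was called in WT 2 alone, at 44.2. Region 4 (chr7:149900713-149900776) was shared, with percentiles of 30.7, 61.2, 47.0 and 56.8 in the order WT 1, WT 2, Mbd1 KO 1 and Mbd1 KO 2, so that the replicates numbered 2 were higher in both titled groups. Region 5 (chr7:149912146-149912175) showed the widest gap between the titled groups in percentile, with 16.7 in WT 1, 29.5 in WT 2, 55.6 in Mbd1 KO 1 and 71.3 in Mbd1 KO 2. Its scores were 5.61 and 6.10 in the WT libraries and 9.67 and 17.9 in the Mbd1 KO libraries. In percentile, the pairs of the genotype field overlapped at region 5.

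At Meg3 (chr12:110740000-110850000) there were 2 regions, and the last 70.9 kb of the window were empty. Meg3 is a non-coding RNA made from the maternal copy of the Dlk1 and Meg3 cluster. Region 1 (chr12:110749817-110749887) was called in all 4 libraries at percentiles of 20.0 in WT 1, 56.3 in WT 2, 62.6 in Mbd1 KO 1 and 64.8 in Mbd1 KO 2. WT 1 stood well below the other 3 libraries. Region 2 (chr12:110779103-110779111) was called in WT 2 at 50.6 and in Mbd1 KO 2 at 52.0, with the summits 8 bp apart, and in neither WT 1 nor Mbd1 KO 1, whose nearest summits were those of region 1, 29216 and 29248 bp away.

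At Kcnq1ot1 (chr7:150380000-150500000) a single strong region stood alone. Kcnq1ot1 is a long non-coding RNA made from the paternal copy, antisense to Kcnq1, and linked to silencing of neighbouring genes on that copy. Region 1 (chr7:150482547-150482553) was called in all 4 libraries within 6 bp. Its scores were 39.3 in WT 1, 28.8 in WT 2, 31.9 in Mbd1 KO 1 and 30.6 in Mbd1 KO 2, and its percentiles 90.9, 88.5, 89.7 and 86.9. The 4 percentiles spanned 3.96 points, and the titled groups overlapped. It ranked 3438 in the WT 1 list and 6397 in the Mbd1 KO 2 list, with the other 2 libraries between them. The neighbouring regions lay 131 kb before and 164 kb after it, where the median gap between neighbouring regions was 16.5 kb. By a limit of 100 kb on either side, chosen after its values were seen, 0.718% of the 26592 shared regions stood as isolated, and it was the only such region among the 11.

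At Snrpn (chr7:67090000-67190000) there were 2 summits over all 4 libraries, the fewest of the 7 windows. Snrpn encodes a splicing protein, is made from the paternal copy, is active in neurons and belongs to the cluster linked to Prader-Willi and Angelman syndromes. Its only region (chr7:67152817-67152870) was called in WT 2, with a score of 6.67 and a percentile of 33.4, and in Mbd1 KO 2, with 6.40 and 27.0. WT 1 had no summit within 103966 bp and Mbd1 KO 1 none within 70947 bp. The split therefore follows the genotype field and the replicate numbers, not the titles. With read depth unknown, a missing call is not a measure of closed chromatin.

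Peg3 (chr7:6630000-6710000) had the densest window, with 7 regions in 80 kb, or 87.5 per Mb. Peg3 encodes a zinc finger protein made from the paternal copy. Region 1 (chr7:6649276-6649321) had the highest percentile of the 22 regions in Mbd1 KO 1 and Mbd1 KO 2. Its scores were 25.1 in WT 1, 23.7 in WT 2, 42.9 in Mbd1 KO 1 and 34.0 in Mbd1 KO 2, and its percentiles 81.5, 84.0, 93.7 and 89.3. Both Mbd1 KO libraries were above both WT libraries there, while the pairs of the genotype field overlapped. Region 7 (chr7:6693393-6693464) was called in WT 1 at 23.5 and in Mbd1 KO 1 at 50.2 and in neither library numbered 2.

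Between them, Peg3 regions 2 to 6 formed a row of summits 3.03 kb long (chr7:6680224-6683256), in which every library had 4 summits. Successive regions were 386, 863, 744 and 910 bp apart. Such a row of 5 or more regions, each within 1000 bp of the next, made up 0.0270% of the 77797 stretches of the genome (21 stretches), and a row with 3 or more regions of all 4 libraries 0.0643% (50 stretches). That description was chosen after the Peg3 values were seen. In the middle of the row, region 4 (chr7:6681493-6681548) was strong, with scores of 27.5, 21.6, 24.9 and 27.3 in the order WT 1, WT 2, Mbd1 KO 1 and Mbd1 KO 2. Its percentiles were even, at 83.7, 81.5, 84.8 and 84.4, a range of 3.28 points and the smallest among the 11 shared regions.

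The flanks of the row differed between libraries. Region 2 (chr7:6680224-6680244) was called in WT 1 at a score of 8.55, in Mbd1 KO 1 at 8.84 and in Mbd1 KO 2 at 21.1. WT 2 had no summit there but had the only summit of region 3 (chr7:6680630), 386 bp on, with a score of 13.9. With summits joined within 1000 bp the whole row is 1 region called in all 4 libraries. Region 5 (chr7:6682292-6682295), whose 4 summits lay within 3 bp, had percentiles of 65.7 in WT 1, 42.8 in WT 2, 67.1 in Mbd1 KO 1 and 53.2 in Mbd1 KO 2. Region 6 (chr7:6683205-6683256) had 69.6, 42.5, 69.2 and 44.8 in the same library order. At both, the libraries numbered 1, which are the knockout pair of the genotype field, were above the libraries numbered 2.

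**Figure D3:**
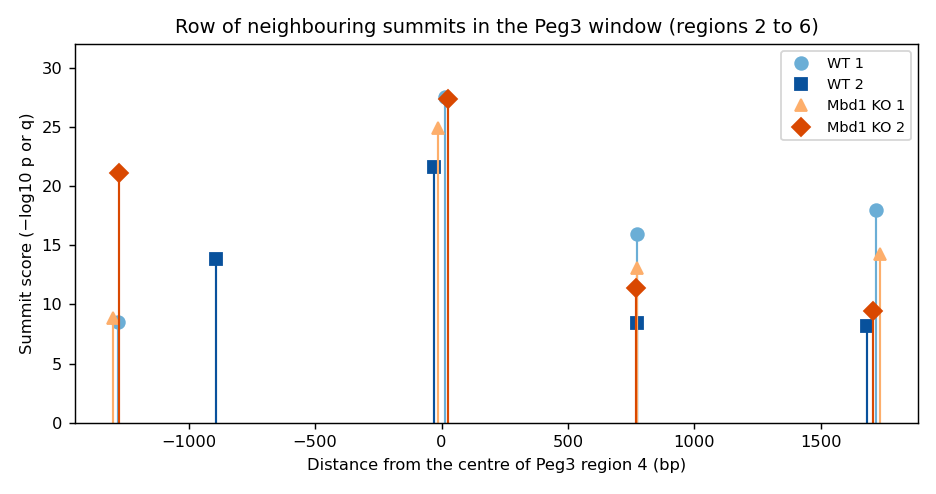
Scores (y axis, −log10 p or q) of the 16 summits of Peg3 regions 2 to 6 in the 4 libraries, by distance in bp from the centre of region 4 (x axis). Region 4 has scores from 21.6 to 27.5, while WT 1 and Mbd1 KO 1 have the higher scores at both regions to its right. Scores were not put on one scale between libraries, and read depth is unknown.

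At Gnas (chr2:174090000-174190000) the 3 regions had percentiles from 6.51 to 68.2, and no region was evenly called. Gnas encodes the stimulatory G protein alpha subunit and shares its locus with other imprinted transcripts. Region 1 (chr2:174136519-174136567) was called in all 4 libraries, at percentiles of 7.63 in WT 1, 40.7 in WT 2, 60.4 in Mbd1 KO 1 and 27.0 in Mbd1 KO 2. The titled groups overlapped there. Region 2 (chr2:174137776-174137803), 1209 bp on, was called in WT 2 at 44.2, in Mbd1 KO 1 at 68.2 and in Mbd1 KO 2 at 6.51, and not in WT 1. Region 3 (chr2:174169797-174169815) was called only in the libraries titled Mbd1 KO, at scores of 5.60 and 8.66 and percentiles of 32.4 and 40.2. The nearest WT summits were 33241 bp away in WT 1 and 31994 bp away in WT 2. The window held 1 and 2 summits in the WT libraries and 3 in each Mbd1 KO library (exact permutation p = 0.333, two-sided). By the genotype field the mean difference, knockout minus wild type, turned from 1.5 to −0.5 summits. With the strongest 38142 summits of each list the difference by title fell to 0.5.

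At Igf2r (chr17:12850000-12990000) the 3 regions lay 57.8 and 51.1 kb apart. Igf2r encodes a receptor that takes up IGF2 for degradation, and the gene overlaps the non-coding RNA Airn. Region 2 (chr17:12911377-12911457) was called in all 4 libraries with scores of 11.0 in WT 1, 15.9 in WT 2, 10.9 in Mbd1 KO 1 and 13.7 in Mbd1 KO 2, and percentiles of 47.7, 71.1, 60.4 and 61.0. The titled groups overlapped, and the libraries numbered 2 had the higher percentiles. Region 1 (chr17:12853555-12853576) was called at 53.4, 40.7 and 69.9 in WT 1, WT 2 and Mbd1 KO 1 but not in Mbd1 KO 2, which had its nearest summit 57840 bp away. Region 3 (chr17:12962583-12962617) was called in WT 1 at 44.6 and in Mbd1 KO 1 at 62.6 and in neither library numbered 2.

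**Figure D4:**
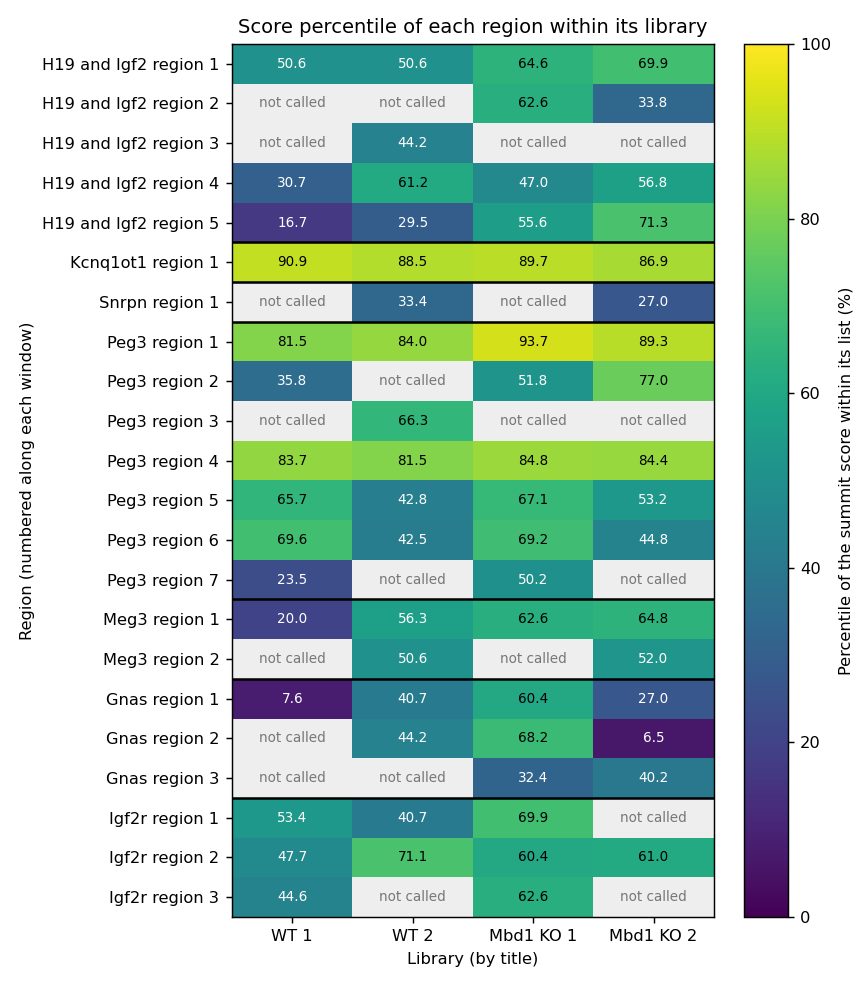
Percentile of the summit score within its own list (colour and number, %) for each of the 22 regions (rows) in each library (columns); grey cells are not called. Kcnq1ot1 region 1 and Peg3 regions 1 and 4 are above 80 in every library, and the Gnas and Snrpn regions are mostly low or not called.

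Few regions followed the titled groups in their calls. Of the 22, 2 (9.09%) had calls in the pair titled Mbd1 KO and no call in the WT pair, against 4.07% of all regions: H19 and Igf2 region 2 and Gnas region 3. None (0) had the opposite pattern, against 0.975%. The pairs of the genotype field had 4 such regions, with 2 in WT 1 and Mbd1 KO 1 only (Peg3 region 7 and Igf2r region 3), against 1.67%, and 2 in WT 2 and Mbd1 KO 2 only (Snrpn region 1 and Meg3 region 2), against 2.63%. None (0) followed the remaining split, against 4.43%. No strong region was among these 6, and their highest percentile was 62.6. Of the 88 combinations of a region with a library, 67 were called and 21 were not. In 4 of the 21 the library had a summit within 1000 bp, all of them at Peg3 regions 2 and 3.

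In percentile, both Mbd1 KO libraries were above both WT libraries at 5 of the 11 shared regions (45.5%), against 33.1% of shared regions genome-wide, and none (0) had both WT libraries above, against 4.76%. The 5 were H19 and Igf2 regions 1 and 5, Peg3 regions 1 and 4 and Meg3 region 1. By the genotype field, 3 of 11 (27.3%) had the knockout pair above, Kcnq1ot1 region 1 and Peg3 regions 5 and 6, against 13.1%, and 2 of 11 (18.2%) the wild-type pair, H19 and Igf2 region 4 and Igf2r region 2, against 16.6%. Percentiles depend on list length, and the Mbd1 KO lists were the longer ones. When the same 26592 shared regions were ranked in every library, Mbd1 KO was above WT at 2 of 11 (18.2%), H19 and Igf2 region 5 and Peg3 region 1, against 16.2% genome-wide. WT was above Mbd1 KO at 1 of 11 (9.09%), Kcnq1ot1 region 1, against 16.1%. In these ranks Kcnq1ot1 region 1 stood at 87.0 in WT 1, 80.0 in WT 2, 78.2 in Mbd1 KO 1 and 75.7 in Mbd1 KO 2, whereas its percentiles among all summits overlapped. H19 and Igf2 region 5 stood at 5.70 and 6.59 in the WT libraries and at 18.6 and 47.7 in the Mbd1 KO libraries. Peg3 region 1 stood at 73.6 and 72.1 against 86.8 and 80.1. By the genotype field, 2 of 11 (18.2%) had the knockout pair above in these ranks, Peg3 regions 5 and 6, against 18.2%, and 3 of 11 (27.3%) had the wild-type pair above, H19 and Igf2 region 4, Meg3 region 1 and Igf2r region 2, against 17.8%. Single regions were not tested.

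The window edges cut through no region. The regions next inside an edge lay 3.56 to 158 kb from it. The regions next outside lay 0.466 to 237 kb away, and 7 of these 14 were called in all 4 libraries and 5 in 1. The closest was chr17:12990466, just past the end of the Igf2r window, called in 1 library at a percentile of 53.0. The regions outside both edges of the Peg3 window, chr7:6616408-6616458 and chr7:6729244-6729310, were shared and strong, at percentiles from 76.0 to 90.1 and from 74.8 to 85.8. Those outside both edges of the Snrpn window were called in 1 library each, at percentiles of 1.84 and 0.00887.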

How the data were processed

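FAIRE-seq summits of 4 dentate gyrus libraries were used, 2 per titled group. Per the submitters' processing notes, Bowtie, SAMtools and MACS2 were used with mm9; the sources used here do not give versions, thresholds or an input control. The authors deposited 1 list of 1-base summits per library, not pooled, whose score was read as MACS2's −log10 of p or q; which of the 2 is not stated. All scores lie above 1.3. In the counts and comparisons, scores were used only to rank or filter summits within a list. Scores are also printed and plotted side by side, but they were not put on one scale between libraries. Read depth is unknown, so no counting interval was computed.

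Neighbouring summits were joined at a distance of up to 250 bp over the whole genome, positions were made 1-based, and regions inside the 7 windows were kept. A region's percentile in a library is the rank of its summit among all summits of the list, with tied scores at their mean rank. Summit numbers were compared with exact two-sided permutation tests; counts of regions were set beside the share over all regions, with no test. Joining was run on simulated lists, in which every call count was recovered. The simulated regions all lay much farther apart than the joining distance, so this checked the code only. It cannot show how joining treats regions as close as those of the Peg3 row. The planned rule named shared regions, regions that followed the titled groups in their calls, and regions next to a window edge. H19 and Igf2 region 3, Peg3 regions 2 and 3 and Gnas region 2 were named beyond that rule, so that every region of the windows is given. The windows, genes and comparisons were chosen with earlier results of these data known. Alternatives were the genotype field groups, lists of equal length, a score of at least 10, wider windows, other joining distances, ranks among shared regions, a replicate block and leaving out each library; the 2 libraries whose labels agree were added after the data were seen. Promoter stretches come from RefSeq (GRCm38.p6). The planned list of other imprinted genes was not run, because no mm9 annotation was used. Versions were matplotlib 3.10.9, pandas 2.3.3, numpy 2.4.6 and Python 3.11.15.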

Additional observations from a re-analysis of the deposited data

How the results depend on the processing

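Of 140 values recomputed under the alternatives, 99 kept their direction or stayed within 1.5 times or 1 SD. These 99 include values with no direction to keep. The main differences at Kcnq1ot1, Snrpn, Peg3 and Meg3 were 0, and there a value of 0 or a shift within 1 SD counted as kept. Differences are Mbd1 KO minus WT in mean summits per library, and shares are window summits per 1000 summits. Grouping by the genotype field changed the summit ratio from 1.09 to 0.971 and the share from −0.0481 to 0.00293, both reversed, and regions called in both WT and neither Mbd1 KO rose from 0 to 2. The differences per window turned to −0.5 at H19 and Igf2, −0.5 at Gnas and 1.5 at Igf2r and became −1 at Snrpn, 1 at Peg3 and −1 at Meg3, and the regions with ranks apart were 3 and 2 (Mbd1 KO above and WT above). In that grouping WT 1 and Mbd1 KO 2 change places. With the strongest 38142 summits of each list the share turned to 0.0131, 1 region was specific to Mbd1 KO, and 2 and 1 regions had ranks apart. With a score of at least 10 the share turned to 0.117, shared regions fell to 4 and those specific to Mbd1 KO to 0. Meg3 differed by 1, and 1 region had ranks apart each way. The summit ratio rose from 1.09 to 1.5 and the H19 and Igf2 difference from 0.5 to 1.5. The Gnas difference fell from 1.5 to 1, and those at Peg3 and Igf2r became 0.5 and 0. The cause of these changes was not tested. Ranks among shared regions gave 2 and 1 apart. With windows extended by 50 kb the difference was −1 at Peg3 and turned to 1 at Igf2r; the cause was not tested. In the 2 libraries whose labels agree, chosen after the data were seen, 5 regions were specific to Mbd1 KO and 4 to WT, the differences were −1 at Snrpn, 1 at Peg3, −1 at Meg3 and 1 at Igf2r (reversed), and 11 and 2 regions had ranks apart, where a group is 1 library and fewer calls have to coincide. Leaving out 1 library, regions specific to WT numbered from 0 to 2 (2 without WT 1, 1 without Mbd1 KO 1), regions with Mbd1 KO above WT from 5 to 9 (9 without WT 2, 8 without Mbd1 KO 2), those with WT above from 0 to 2, and the Igf2r difference ran from −1.5 to 0.5 (0.5 without Mbd1 KO 2). With a replicate block the ratio was 1.1 (exact sign-flip permutation p = 1) and the share −0.0481 (p = 0.5, the smallest that 2 pairs allow, same permutation test). What the replicate numbers mark is not stated, and deviations of same-numbered libraries correlated at 0.013 over shared regions. Joining within 100 or 1000 bp changed no count by over 1.5 times.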
